A study of Mus musculus with 2 samples.

Results

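The genes described here are the mouse heat shock proteins and the DnaJ co-chaperones, taken from 2 one-color microarrays of lymph node stromal cells. They were chosen by name alone, as every gene on the arrays whose symbol begins with Hspa, Hspb, Hsp90 or Dnaja, Dnajb or Dnajc and a number, with Hspd1, Hspe1 and Hsph1 added. The rule found 72 genes, read by 155 probes, among 37009 gene names and 56605 non-control probes. It holds 8 small heat shock genes (Hspb) and 64 others, namely 13 Hsp70 genes (Hspa), 3 Hsp90 genes, Hspd1, Hspe1, Hsph1, 4 Dnaja, 13 Dnajb and 28 Dnajc genes. One more probe that maps to Dnajb8 through an older name lies outside the rule.

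The tumor-draining sample was RNA of CD45-negative cells sorted from the lymph nodes that drain a 4T1 mammary carcinoma, collected 2 weeks after the tumor cells were placed under the skin at the mammary gland of C57BL/6 mice. The normal sample was RNA of lymph node cells of mice without a tumor, labelled as stromal cells like the other. Both samples are labelled female, no genotype other than the strain is given, and the labels do not say how many mice went into either. 4T1 is known as a BALB/c line, so tumor and host differ in strain, and that difference cannot be told apart from the presence of a tumor. Each group has 1 array, so no difference below has a replicate check and no p-value is given. Both arrays lay on 1 slide. Of all probes, 35572 were well above background on the tumor-draining array and 36783 on the normal array, and no spot was saturated.

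Heat shock proteins are chaperones, which hold, fold or release other proteins. Small heat shock proteins bind unfolding proteins without using ATP and are abundant in muscle and other contractile or cytoskeleton-rich cells. Hsp70 proteins bind and release short stretches of a client in an ATP cycle, DnaJ proteins (also called Hsp40) bring clients to Hsp70 and start its ATP hydrolysis, and Hsp110-type proteins exchange the nucleotide that ends the cycle. Hsp90 finishes the folding of kinases and receptors, and the Hspd1 and Hspe1 chaperonin folds proteins inside mitochondria. Many of these genes are switched on by heat shock factor 1, which binds repeated GAA units in their promoters. The chaperones of the endoplasmic reticulum (ER) answer instead to the unfolded protein response.

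The promoter sequences below are shown because each matches paired heat shock units, a full heat shock element or an ER stress element. The match is by exact letters, and most members searched had none. Of the genes shown, Hspb1 was lower on the tumor-draining array by 2-fold or more, and the others were within 2-fold. They are RefSeq sequences of build GRCm38.p6, the 250 bases before the start site, 5′ to 3′ in the direction of the gene, and capitals mark the motif. In Hspb1 (chr5:135887669-135887918, + strand), Hspa1a (chr17:34972157-34972406, - strand) and Hsph1 (chr5:149636337-149636586, - strand) the capitals mark paired heat shock units. In Hspe1 (chr1:55087898-55088147, + strand), whose upstream region overlaps that of Hspd1 on the other strand, they mark overlapping full heat shock elements. In Hspa5 (chr2:34771840-34772089, + strand) they mark an ER stress element.
Hspb1: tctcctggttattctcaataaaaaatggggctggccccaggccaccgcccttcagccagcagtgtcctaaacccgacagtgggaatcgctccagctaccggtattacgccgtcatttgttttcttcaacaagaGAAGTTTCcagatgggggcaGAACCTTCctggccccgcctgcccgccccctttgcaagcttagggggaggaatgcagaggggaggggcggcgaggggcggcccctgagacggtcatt
Hspa1a: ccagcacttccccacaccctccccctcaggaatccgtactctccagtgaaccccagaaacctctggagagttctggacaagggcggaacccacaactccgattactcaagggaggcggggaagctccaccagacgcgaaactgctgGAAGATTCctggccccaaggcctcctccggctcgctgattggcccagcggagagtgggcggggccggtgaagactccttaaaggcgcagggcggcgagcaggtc
Hsph1: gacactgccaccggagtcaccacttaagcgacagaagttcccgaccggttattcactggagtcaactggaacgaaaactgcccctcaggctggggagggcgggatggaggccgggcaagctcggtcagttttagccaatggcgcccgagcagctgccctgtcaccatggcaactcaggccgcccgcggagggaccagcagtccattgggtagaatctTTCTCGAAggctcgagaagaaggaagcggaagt
Hspe1: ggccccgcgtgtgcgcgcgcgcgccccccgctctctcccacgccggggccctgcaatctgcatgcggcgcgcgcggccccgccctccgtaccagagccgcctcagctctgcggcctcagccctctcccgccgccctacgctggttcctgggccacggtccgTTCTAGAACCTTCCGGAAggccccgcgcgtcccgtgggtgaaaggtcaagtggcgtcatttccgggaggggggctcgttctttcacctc
Hspa5: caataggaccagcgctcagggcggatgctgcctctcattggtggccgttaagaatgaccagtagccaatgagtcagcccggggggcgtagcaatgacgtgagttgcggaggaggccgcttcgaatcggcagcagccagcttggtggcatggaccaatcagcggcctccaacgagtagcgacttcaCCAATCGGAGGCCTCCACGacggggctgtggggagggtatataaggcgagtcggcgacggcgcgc

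Entries were found for 58 of the 72 genes. The search used both strands and exact letters. Paired heat shock units are GAANNTTC or TTCNNGAA. The full heat shock element adds a further GAA or TTC after NN, so that GAA and TTC alternate over 3 units, and a gene with the full element also has paired units. The full element was in 3 of the 58 genes, Dnajb6, Hspd1 and Hspe1, and in 0.514% of 27025 genes with such promoters (0.466% of 32851 promoters). Paired units were in 14 of the 58 genes and in 14.5% of all genes (12.8% of promoters). The 14 were Dnaja1, Dnaja4, Dnajb4, Dnajb6, Dnajc10, Dnajc27, Hspa1a, Hspa1b, Hspb1, Hspb3, Hspb6, Hspd1, Hspe1 and Hsph1. The ER stress element, CCAAT and CCACG with 9 bases of any kind between them, was in Dnajc3, Hsp90b1 and Hspa5 and in 0.130% of all genes (0.113% of promoters). A match is a run of letters and not a shown binding site. Of the genes with paired units, Hspb1 and Dnaja4 were lower on the tumor-draining array by 2-fold or more, Hspb3 was not above background, and the other 11 were within 2-fold. Over all genes measured, 16.5% were lower by 2-fold or more, near the share among these genes.

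Of the 72 genes, 65 were above background on at least 1 array and 64 on both. The values are processed signals in arbitrary units, and a difference is the log2 signal, scaled to the 75th percentile of its array, on the tumor-draining array minus that on the normal array. Fold values are those of the scaled signals. A gene stands by its brightest probe and is called higher or lower at 2-fold or more. By that rule 2 genes were higher and 10 were lower on the tumor-draining array, while 53 were within 2-fold. Over all 24656 genes measured, 11.5% were higher and 16.5% lower by that rule, so the 10 lower genes are near what the whole array shows and the 2 higher genes are below it. The median difference was -0.01 over the 65 genes and 0.10 over all genes. Most members moved little, with 43 of the 65 within 0.5 on the log2 scale. The lower calls were uneven among the name groups, with 4 of 7 measured small heat shock genes and 6 of 58 others. The higher calls were Hspa4l and Dnajc2.

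**Figure D1:**
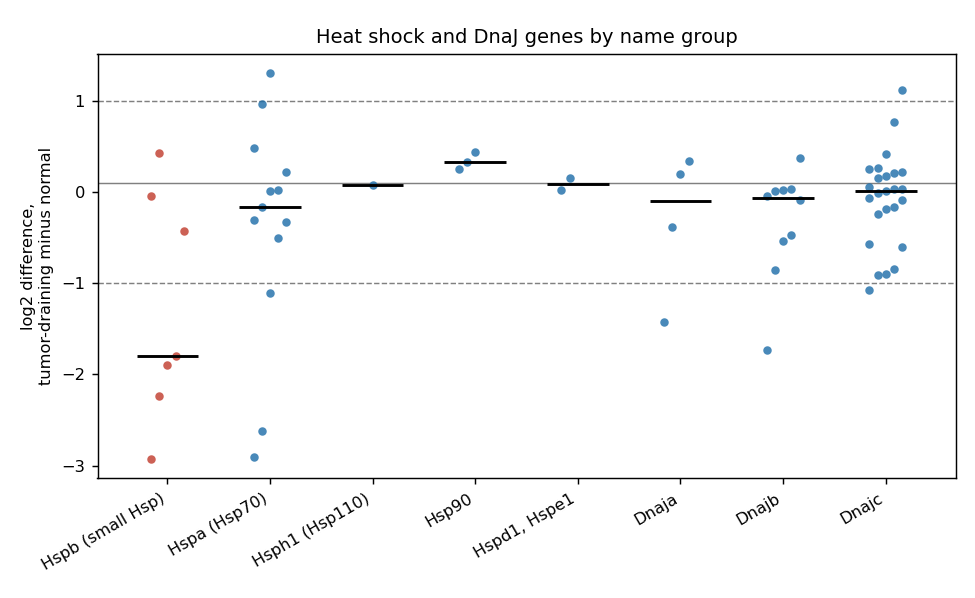
Each point is 1 gene, placed by its log2 difference (tumor-draining minus normal, vertical axis) in its name group, with black bars at group medians, a solid line at the median of all genes and dashed lines at 2-fold; Dnajb3, above background on the normal array alone, stands at its measured value. The small heat shock genes (red) have a median of -1.79, while the medians of the other groups lie between -0.17 and 0.33.

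The small heat shock genes had a median difference of -1.79 over 7 measured genes, against 0.01 over the 58 other members, a gap of -1.81. Hspb2, which encodes a small heat shock protein of muscle, had a signal of 81.7 on the tumor-draining array and 649 on the normal array, 7.61-fold lower. Hspb1, which encodes Hsp27, a chaperone of actin filaments and stressed cells, had 11690 on the tumor-draining array and 57554 on the normal array, 4.72-fold lower (-2.24). These are the values of 1 probe each, on mm9 chr9:50559211-50559270 for Hspb2 and chr5:136365366-136365425 for Hspb1. Both stayed past 2-fold with normexp background correction, quantile normalization, loess and in the authors' deposited table. Scaled to the spike-ins, the differences were -2.11 for Hspb2 and -1.42 for Hspb1. The alternatives that change only the background filter, the signal cutoff or the averaging of probes leave such values as they are.

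Hspb7, known from heart and skeletal muscle, had a signal of 58.4 on the tumor-draining array and 226 on the normal array, 3.72-fold lower. A dimmer Hspb7 probe was above background on the normal array alone, with 5.65 on the tumor-draining array and 12.4 on the normal array. Hspb8, which works with the co-chaperone Bag3 to send damaged filament proteins to autophagy, had 204 on the tumor-draining array and 736 on the normal array, 3.46-fold lower. Both probes of Hspb7 and the Hspb8 probe were thus lower on the tumor-draining array. Scaled to the spike-ins, Hspb7 was at -1.07 and Hspb8 at -0.97, just under the threshold.

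The remaining small heat shock genes stayed within 2-fold. Hspb6, which encodes the smooth muscle protein Hsp20, had a signal of 128 on the tumor-draining array and 180 on the normal array, a difference of -0.43. Hspb9, known from testis, had 50.5 on the tumor-draining array and 39.2 on the normal array, a difference of 0.43. Hspb11 had 529 on the tumor-draining array and 570 on the normal array, a difference of -0.05. A dimmer Hspb11 probe, above background on the tumor-draining array alone, had 8.64 there and 2.26 on the normal array. With the mean over its probes Hspb11 was at 0.97. Hspb11 also bears the name Ift25 and encodes a protein of ciliary transport, so its name groups it with genes whose role it does not share. Hspb3, a muscle gene, was not above background on either array.

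Cryab and Bag3, which belong with the small heat shock proteins by sequence and by partnership, though not by name, were also lower. Cryab encodes alpha B-crystallin, a small heat shock protein of lens and muscle, and lies head to head with Hspb2. It had a signal of 429 on the tumor-draining array and 3183 on the normal array, 7.11-fold lower, from a probe on mm9 chr9:50564566-50564625. Cryaa, the lens crystallin, was dim on both arrays, with 35.4 on the tumor-draining array and 49.7 on the normal array (-0.43). Bag3 had 4036 on the tumor-draining array and 17992 on the normal array, 4.27-fold lower (-2.09). It was the 1 gene at least 2-fold lower among 29 co-chaperones of Hsp70 and Hsp90, a list with a median of 0.16 and with 1 gene at least 2-fold higher, Hspbap1 (1.57 on its brightest probe and 0.60 on another).

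**Figure D2:**
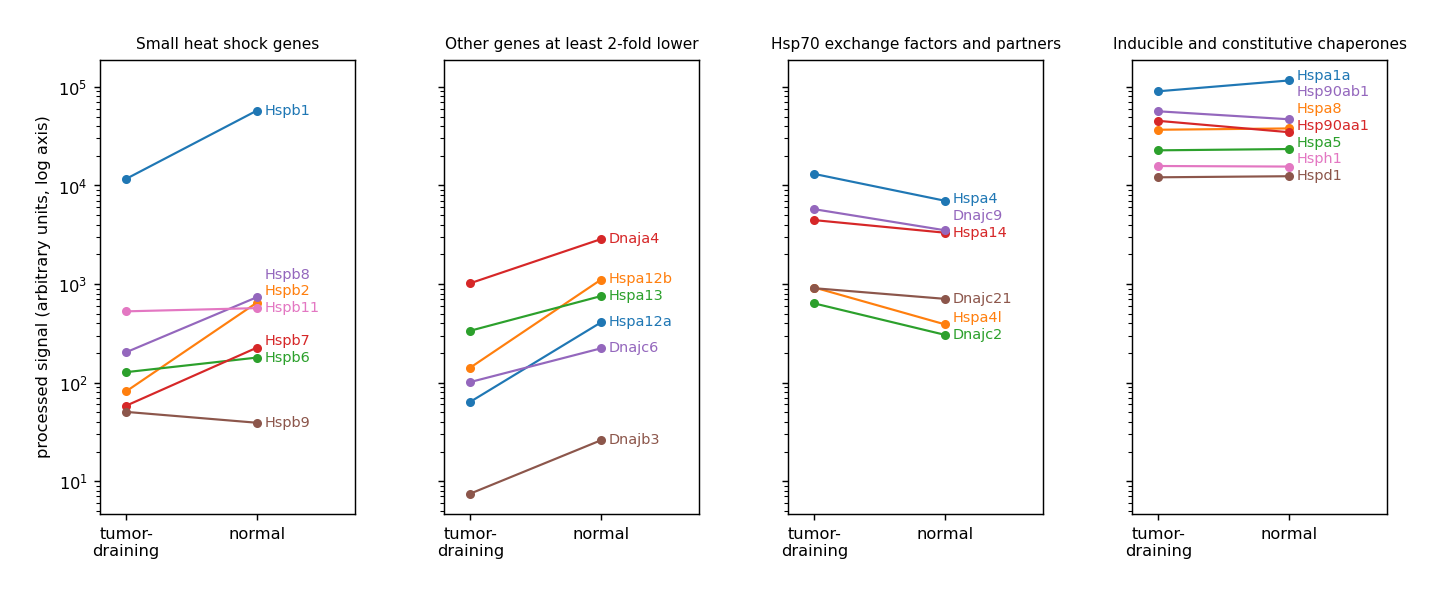
Lines join the processed signal of a gene's brightest probe (log axis, arbitrary units) on the tumor-draining array, left, and on the normal array, right, in 4 sets of genes. Hspb1, Hspb2, Hspb7 and Hspb8 slope up toward the normal array, Hspa4, Hspa4l and Dnajc2 slope down, and the lines of Hspa8, Hspa5, Hsph1 and Hspd1 are nearly level; heights of different genes are not comparable.

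Markers of contractile and other stromal cells were lower on the same array as the small heat shock genes. Of 10 pericyte and smooth muscle markers, 8 were at least 2-fold lower, from Des (-3.36 on its brightest probe and 0.42 on another), which encodes the muscle filament desmin, to Cnn1 (0.24), an actin-binding protein of smooth muscle. Their summed signal was 19060 on the tumor-draining array and 54192 on the normal array. Of 11 endothelial markers, 11 were at least 2-fold lower, from Emcn (-3.54) to Pecam1 (-1.17), with a summed signal of 3665 on the tumor-draining array and 25779 on the normal array. Of 12 genes that mark fibroblastic reticular cells, 11 were lower by 2-fold or more, with Ccl19 lowest (-3.20), Pdpn at -1.96 and Col3a1 highest (-0.85). Their summed signal was 169025 on the tumor-draining array and 442532 on the normal array. Skeletal muscle markers had 6 measured genes of 8, of which 3 were at least 2-fold lower, and a summed signal of 430 on the tumor-draining array and 935 on the normal array. The brightest probe of Myh4, a fast muscle myosin, had 1.71 on the tumor-draining array, not well above background there, and 411 on the normal array, but another Myh4 probe was above background on both and at 0.78. Without Myh4 the summed signal was 429 on the tumor-draining array and 524 on the normal array. Mylpf, a fast muscle light chain, had a difference of 0.93, and Ckm and Mb were not above background on either array.

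Leukocyte genes moved the other way. All 8 pan-leukocyte markers were at least 2-fold higher, from Arhgap15 (1.34) to Ptprc (2.30), and their summed signal was 75377 on the tumor-draining array and 21553 on the normal array. Ptprc, the gene of CD45, on whose absence the tumor-draining cells were sorted, had a signal of 17432 on the tumor-draining array and 3702 on the normal array, above background on both. Of the T cell markers 8 of 8 passed 2-fold upward, from Cd4 (1.49) to Cd28 (2.79), and of the B cell markers 6 of 8, with Cd79b lowest (0.76) and Bank1 highest (2.94). Their summed signals were 52891 for T cells and 58280 for B cells on the tumor-draining array, and 11391 for T cells and 25861 for B cells on the normal array. Plasma cell markers passed 2-fold upward in 4 of 7 cases, between Sdc1 (-0.92) and Jchain (4.13), and myeloid markers in 1 of 8, between Cd14 (-0.68) and Tyrobp (1.28). In such bulk samples fewer cells of a type and less RNA per cell cannot be told apart, and the part of cell makeup in the small heat shock differences was not tested.

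**Figure D3:**
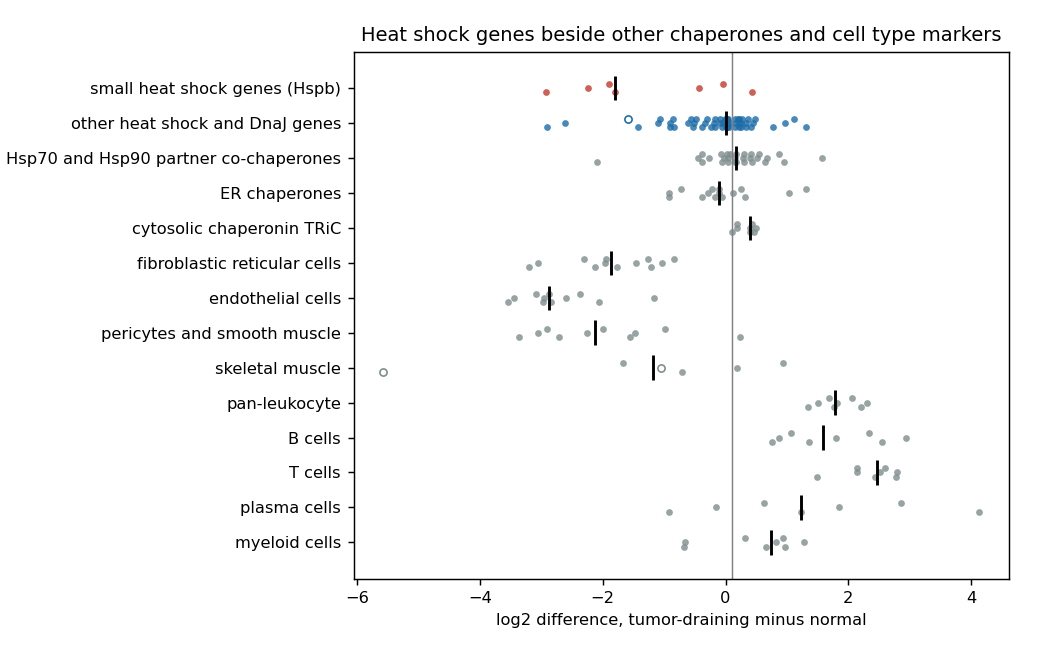
Points are genes placed by their log2 difference (tumor-draining minus normal, horizontal axis) in each list, open circles are bounds for genes above background on 1 array, black bars are medians of the measured differences and the grey line is the median of all genes. The median of the small heat shock genes (red, -1.79) lies near those of the fibroblastic (-1.86) and pericyte and smooth muscle markers (-2.13), with 3 genes above -0.5, whereas the other members (blue) and the chaperonin list (0.40) lie near or above the median of all genes.

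The Hsp70 genes ran from -2.90 to 1.30, with 1 of 13 at least 2-fold higher, 3 at least 2-fold lower and a median of -0.17. The lowest were the atypical pair Hspa12b and Hspa12a, which carry a divergent ATPase domain. Hspa12b, known from endothelial cells, had a signal of 142 on the tumor-draining array and 1108 on the normal array, 7.48-fold lower. Hspa12a had 63.9 on the tumor-draining array and 408 on the normal array, 6.12-fold lower. Both were past 2-fold with normexp, quantile normalization, loess and in the authors' deposited table. The same held when scaled to the spike-ins (-2.08 for Hspa12b and -1.79 for Hspa12a). The endothelial markers, with a median of -2.87, were lower on the same array, and their part in the Hspa12b difference was not tested.

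Without the Hspa12 pair, the cytosolic Hsp70 genes and their exchange factors showed differences under 2-fold in the main chaperones and higher values for Hspa4 and Hspa4l. The stress-inducible Hspa1a had a signal of 90313 on the tumor-draining array and 116277 on the normal array (-0.30), and Hspa1b had 51448 on the tumor-draining array and 67623 on the normal array (-0.33). These near-identical copies match at 247 of the 250 bases before their start sites, and their probes may each read both. Loess gave -0.97 for Hspa1a and -0.94 for Hspa1b, and quantile normalization -0.79 for Hspa1b. Hspa8, the constitutive Hsc70, had 36761 on the tumor-draining array and 37914 on the normal array (0.02), although its 3 other probes ran from -0.43 to -0.24. Hspa2, known from germ cells and skeletal muscle, had a difference of -0.51, and the testis gene Hspa1l, dim on both arrays, one of -0.17.

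Hspa4 and Hspa4l encode Hsp110-type exchange factors for Hsp70. Hspa4l had a signal of 922 on the tumor-draining array and 390 on the normal array, 2.47-fold higher. Its 3 other probes were higher by 0.21 to 0.63, so the mean of its 4 probes was 0.67 and under 2-fold. Hspa4 had 13094 on the tumor-draining array and 6995 on the normal array, 1.95-fold higher (0.97) and just under the threshold. All 4 of its probes were higher, by 0.87 to 1.71, with a mean of 1.15, but loess normalization gave 0.57. Hsph1, the third exchange factor of this type, had 15764 on the tumor-draining array and 15557 on the normal array (0.08). Hspa14, an Hsp70 of the ribosome-associated complex, had a difference of 0.49 on its brightest probe and 0.33 to 1.44 over its 5 probes.

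Dnajc2, the J-domain partner of Hspa14 at the ribosome, was the other gene called higher. Its signal was 636 on the tumor-draining array and 305 on the normal array, 2.18-fold higher, and its dimmer probe had 29.9 on the tumor-draining array and 9.56 on the normal array (1.71). Both probes were past 2-fold. The difference was 0.98 with normexp background correction and 0.95 with loess, just under the threshold. Dnajc21, a factor in ribosome maturation, had a difference of 0.42, with 1 of its 4 probes at 1.33. Dnajc9, a histone chaperone of dividing cells, had 5746 on the tumor-draining array and 3511 on the normal array (0.77).

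All 3 Hsp90 genes were within 2-fold and their sign depended on the scaling. The inducible Hsp90aa1 had a signal of 45262 on the tumor-draining array and 34714 on the normal array (0.44), and the constitutive Hsp90ab1 had 56567 on the tumor-draining array and 46948 on the normal array (0.33). Hsp90b1, the ER member Grp94, had 20157 on the tumor-draining array and 17618 on the normal array (0.26). The group median of 0.33 turned to -0.18 with quantile normalization, -0.22 with loess and -0.10 in the authors' deposited table. The median of the mitochondrial chaperonin pair also changed sign, from 0.09 in the main scaling (Hspd1 at 0.03 and Hspe1 at 0.16). It was -0.18 with quantile normalization, -0.37 with loess and -0.15 in the authors' deposited table. With quantile normalization Hspd1 was at -0.01 and Hspe1 at -0.34, and in the authors' table Hspd1 was at 0.03 and Hspe1 at -0.32. Dnajb1, the main heat-inducible DnaJ partner of Hsp70, had 26953 on the tumor-draining array and 39040 on the normal array (-0.47), or -1.01 with loess.

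That dependence ran through most abundant members. Of the 14 genes with a signal over 10000 on at least 1 array, 10 had a positive difference in the main scaling. With quantile normalization and with loess it was 1, in the authors' deposited table it was 2, and with the spike-ins 13. The direction of an abundant chaperone with a small difference is therefore not settled by these arrays. Hspb1, which is among the 14, was at least 2-fold lower in all of these scalings, at -2.47 with quantile normalization, -2.75 with loess and -1.42 with the spike-ins.

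**Figure D4:**
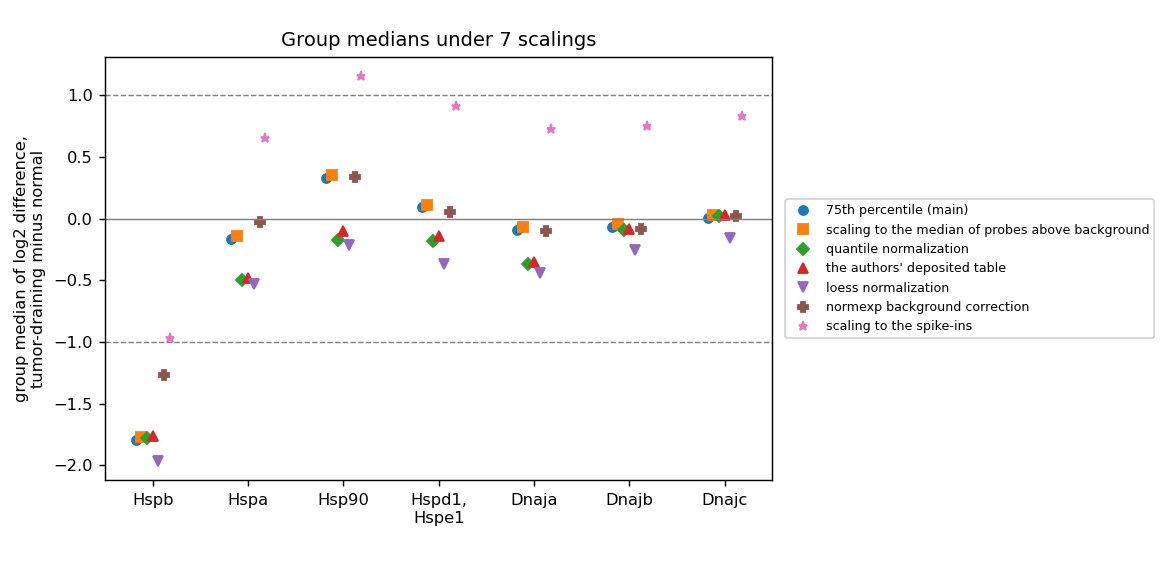
Symbols give the median log2 difference (tumor-draining minus normal, vertical axis) of each name group under 7 scalings, with dashed lines at 2-fold. The small heat shock median stays between -1.97 and -0.97, while the Hsp90 median lies at 0.33 in the main scaling, at -0.22 with loess and at 1.15 with the spike-ins.

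The ER members were within 2-fold with 1 exception. Of 13 genes with a known ER role, 1 was lower, none was higher and the median was 0.01. Hspa5 (BiP), the ER Hsp70 and the standard sign of ER stress, had a signal of 22730 on the tumor-draining array and 23435 on the normal array (0.02), and its 3 probes ran from -0.12 to 0.02. Hspa5 was at -0.47 with quantile normalization, -0.48 with loess, -0.44 in the authors' deposited table and 0.84 with the spike-ins. Its DnaJ partners Dnajb9, Dnajb11 and Dnajc1 had differences of 0.01, 0.03 and 0.03. A second Dnajb11 probe was at 0.53, and that gene was at 0.51 with normexp and at -0.64 as the mean of its probes. Dnajc3, a BiP partner and kinase inhibitor, had a difference of -0.57. Dnajc10, an ER reductase, had 1091 on the tumor-draining array and 2042 on the normal array (-0.84), with 4 probes from -1.18 to -0.30. Dnajb14, an ER membrane protein, had 294 on the tumor-draining array and 555 on the normal array (-0.85), and its second probe was at -1.53. Dnajc18 was at -0.90 on its brightest probe and 0.01 on another.

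Hspa13 (Stch), the ER gene called lower, had a signal of 336 on the tumor-draining array and 755 on the normal array, 2.15-fold lower. Its other probe was above background on the tumor-draining array alone, with 22.7 there and 8.65 on the normal array, so the probes disagree and their mean was 0.17. Scaled to the spike-ins, the brightest probe was at -0.29. Other genes of the ER folding pathway also went both ways. Of 15 further ER chaperones, 2 were at least 2-fold higher, Edem1 (1.31) and Sdf2l1 (1.04), none was lower, and Sil1, the exchange factor of BiP, was the lowest at -0.93, although its 3 probes ran from -0.95 to 1.23. Among 6 sensors and factors of the unfolded protein response, Eif2ak3, which encodes the sensor PERK, was at 1.02 and Ern1, which encodes the sensor IRE1, at -1.10, although its 4 probes ran from -1.10 to 0.59.

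Mitochondrial members moved little. All 8, among them Hspd1 and Hspe1, were within 2-fold, from Dnaja3 (-0.38), a J protein of the matrix, to Hspa9 (0.22), the matrix Hsp70 mortalin. Dnajc19 and Dnajc15, J proteins of the import motor, had differences of 0.16 and 0.18, Dnajc11 of the cristae had one of -0.24 and Dnajc30 one of -0.19.

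The DnaJ genes were within 2-fold in 35 of 39 measured cases, with a median of -0.01. Dnaja4 had the lowest difference of those above background on both arrays. It had a signal of 1020 on the tumor-draining array and 2857 on the normal array, 2.68-fold lower, and its second probe had 43.8 on the tumor-draining array and 112 on the normal array (-1.29). It was past 2-fold with normexp, quantile normalization, loess, the mean of its probes and in the authors' deposited table. Scaled to the spike-ins it was not (-0.60). Its relatives Dnaja1 (0.20) and Dnaja2 (0.34), general partners of Hsc70, were within 2-fold, and Dnaja1 had dimmer probes at -0.65.

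Dnajc6 encodes auxilin, which strips clathrin from vesicles and is known mainly from neurons. It had 101 on the tumor-draining array and 223 on the normal array, 2.11-fold lower, and its dim second probe was at -1.28. With normexp its difference was -0.77, and scaled to the spike-ins it was -0.25. Dnajb3, known from testis, had a signal of 7.48 on the tumor-draining array, not well above background there, and 26.0 on the normal array, a bound of at least 3.01-fold lower. With normexp that difference was -0.27, and scaled to the spike-ins it was -0.91. Dnajb5, Dnajc25 and Dnajc28 had differences of -0.54, -0.91 and -0.61.

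Probes of 1 gene often gave different sizes. One probe under the name Dnajb12, an ER membrane J protein, lies on the strand opposite to the gene's other probes. It was left out of this comparison of the members, but not of the alternative that takes the mean over a gene's probes. Probes on opposite strands were not removed from the SD over 7599 genes. The median SD of the log2 difference between probes of a gene was 0.28 over 38 members with at least 2 probes above background on both arrays, and 0.27 over 7599 genes of the array. Replicate spots of 1 probe had a median SD of 0.050 over 286 probes. That set is not the one behind the SD between probes, so the values do not divide the spread into parts. Neither kind of SD covers differences between mice. In 26 of the 38 genes all such probes had the same sign. In 6 genes a probe was at least 2-fold higher while the brightest was within 2-fold, and in 2 genes a probe was at least 2-fold lower in that way. The 3 probes of Dnajb12 on the gene's strand ran from 0.03 to 0.62. Dnajb4 had 2 dim probes at 1.17 and 1.40, while its other probes lay between -0.05 and 0.31. Dnajb6, a suppressor of protein aggregation, had 4 probes from 0.37 to 0.69 and another at 1.31. For Dnajc5, which encodes the synaptic vesicle protein CSP-alpha, the brightest probe was at 0.27 and another at 1.10. Another 26 members rest on 1 such probe, among them Hspb1, Hspb2, Hspb8, Hspa12a and Hspa12b.

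**Figure D5:**
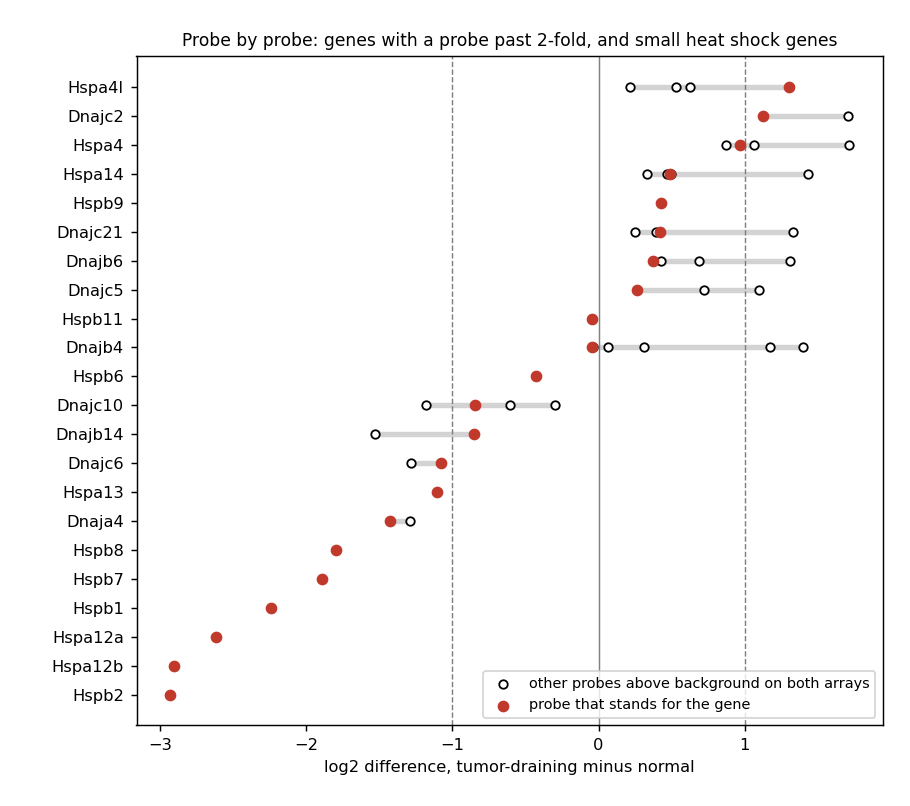
Each row is a gene and each point a probe on the gene's strand above background on both arrays, placed by its log2 difference (tumor-draining minus normal); red points are the brightest probes and dashed lines mark 2-fold. The probes of Dnaja4 and Dnajc6 lie together below -1 and those of Dnajc2 above 1, whereas those of Hspa4l and Dnajb4 spread across the threshold.

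Of 8 members known from testis, 3 were measured, namely Hspa1l, Hspb9 and Dnajb3. The 7 members not well above background on either array were Dnajb7, Dnajb8, Dnajb13, Dnajc5b, Dnajc5g, Dnajc22 and Hspb3.

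The regulators of the heat shock response were within 2-fold. Hsf1 had a signal of 1355 on the tumor-draining array and 992 on the normal array (0.51), and Hsf2 had a difference of -0.24. The list's highest and lowest were Hsf2bp (0.97), which encodes a binding partner of Hsf2, and Hsf5 (-0.74), a dim gene not well above background on the tumor-draining array. None of the 5 genes was past 2-fold. The cytosolic chaperonin TRiC, which folds actin and tubulin, had all 8 subunits within 2-fold, from 0.11 for Cct6a to 0.50 for Cct4, with a median of 0.40 in the main scaling.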

How the data were processed

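RNA of each group was amplified and Cy3-labelled for 1 Agilent mouse array, per the labels' protocols. In the deposited scanner files spots have linear intensities, from which Feature Extraction 12.0.3.1 (protocol GE1_1200_Jun14) had subtracted background, and positions on mm9, per the file headers. Version 10.7 and limma stand in the submitters' processing notes. The deposited value table of the authors holds log2 values whose scale is not given. It followed the log2 processed signals (r = 0.9999 on the tumor-draining array and 0.9997 on the normal array, column medians 4.86 on the tumor-draining array and 4.85 on the normal array) with sorted columns within 0.165 of each other. The steps behind it are unknown, and it served as an alternative. Hspa5 was at -0.44 in this table and at -0.47 with quantile normalization. Dnajb1 was at -0.96 in this table and at -0.99 with quantile normalization. The table and quantile normalization may therefore not be independent alternatives.

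Each log2 processed signal was reduced by the 75th percentile over its array's non-control spots, at a signal of 358 on the tumor-draining array and 374 on the normal array. Control and outlier spots were left out (101 outliers on the tumor-draining array and 98 on the normal array). A probe with the software's mark on 50% or more of its spots was above background, and a gene above background on 1 array got a bound against the lowest such signal on the other. Names came through RefSeq accessions for 32994 probes, symbols for 10224 and synonyms for 520, while 12867 kept the file's name. The table does not state exon or UTR for probes.

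No test was run. The members, gene lists, named genes and alternatives were chosen with earlier results of these data known, and the ER, mitochondrial, cytosolic and testis groups and the promoter motifs after the values were seen. Named were all Hspb genes, all members past 2-fold, the brightest and extreme members of each group, members with disagreeing probes, the extremes of each list and some fixed genes, and other members where a role group was gone through. The choice of a gene's brightest probe and the 2-fold call were tested on simulated data with all probes set above background. The background filter, the bounds and the scalings were not tested in that way. Python 3.11.15 (numpy 2.4.6, pandas 2.3.3) and R 4.3.3 (limma 3.58.1) were used.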

Additional observations from a re-analysis of the deposited data

How the results depend on the processing

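The median of the small heat shock genes was below that of the other members in each alternative. Scaling to the spike-ins or to the median of probes above background shifts all genes alike. The gap therefore stayed at -1.81 in both and could not have changed. With 1 array per group the number of arrays limits the precision. No paired analysis was possible because each group has 1 array. With normexp background correction (offset 50) the small heat shock median and the gap to the other members were both -1.27 and 1 member was higher, while 5.64% of all genes were higher and 9.93% lower. Quantile normalization gave -0.50 for Hspa, -0.27 for Hsph1, -0.18 for Hsp90 and -0.37 for Dnaja. Loess (span 0.3) gave -0.53 for Hspa, -0.37 for Hsph1, -0.22 for Hsp90, -0.37 for Hspd1 with Hspe1 and -0.44 for Dnaja. With loess 1 member was higher and 15 were lower, against 9.06% and 18.8% of all genes. The authors' deposited table gave -0.48 for Hspa, -0.27 for Hsph1 and -0.10 for Hsp90. Scaling to 6 spike-in probes, whose median difference was -0.82, gave -0.97 for Hspb, 0.65 for Hspa, 0.90 for Hsph1, 1.15 for Hsp90, 0.91 for Hspd1 with Hspe1, 0.73 for Dnaja, 0.75 for Dnajb and 0.83 for Dnajc, with 18 members higher and 5 lower, against 46.0% and 8.01% of all genes. Without the background filter the small heat shock median was -1.11 and the gap -1.13, with 12 members lower, against 14.4% of all genes. Among genes at or above the median signal 6 members were lower, against 15.1% of all such genes. The mean over a gene's probes gave -1.48 for Hspb and for the gap, -0.45 for Dnaja, -0.36 for Dnajb and 0.17 for Hspa13. That mean takes in every probe above background on at least 1 array. The mean over members in place of the median gave a gap of -1.10. A rule that every probe above background on both arrays pass 2-fold, chosen after seeing the data, left 1 member higher, Dnajc2. It left Dnaja4, Dnajc6, Hspa12a, Hspa12b, Hspa13, Hspb1, Hspb2, Hspb7 and Hspb8 lower. All of these lower genes but Dnaja4 and Dnajc6 have 1 such probe. The share over all genes was not computed for that rule. Leaving out Hspb9, Hspb11, Hspa12a and Hspa12b, also chosen after seeing the data, gave a gap of -1.91. Single genes moved by more than the median between-probe SD of 0.27 in 8 of 65 cases with normexp, 10 with quantile normalization, 18 with loess, 10 in the authors' table and all 65 with the spike-ins. With the mean over a gene's probes 13 moved and 1, Hspa13, reversed. The causes were not tested.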
